A study of Xenopus laevis with 6 samples.

Results

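The Dlx genes, vertebrate relatives of the fly gene Distal-less, were examined in Xenopus laevis animal pole explants at stage 17. Members were the rows of the deposited gene table whose symbol, without the suffix L or S, is dlx1 to dlx6. These were 14 of 49281 genes. Of them, 10 carry a Dlx symbol of their own, the L and S copies (homeologs) of dlx2, dlx3, dlx4, dlx5 and dlx6. Another 4 are gene models that the table names only provisionally as dlx1. Reads were found for 12 of the 14, and 11 had a mean of at least 10 normalized counts over all libraries and were tested.

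Animal pole explants are pieces of wild type blastula ectoderm, whose pluripotent cells form epidermis when left without further signals. Bulk RNA sequencing compared 2 groups of 3 libraries each. Treated explants were given K02288, which blocks type I BMP receptors, together with CHIR99021 (CHIR in the labels), which turns on canonical Wnt signalling by inhibiting GSK3, from stage 9 to stage 17, and are labelled as reprogrammed to neural crest. Control explants, labelled epidermal, were given DMSO over the same stages. The labels do not say whether libraries came from separate clutches, so the p-values below reflect library-to-library spread alone, and that spread could be technical. Libraries are called a, b and c within each group, as in the table.

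Dlx proteins are homeodomain transcription factors, and their genes lie in vertebrate genomes as tandem pairs: dlx1 with dlx2, dlx3 with dlx4, and dlx5 with dlx6. In the early vertebrate embryo dlx3, dlx5 and dlx6 mark ectoderm outside the neural plate, where BMP signalling maintains them, and dlx3 also acts in epidermal differentiation. Cranial neural crest cells express dlx2 and, in the pharyngeal arches, a nested combination of Dlx genes that patterns the jaw. In the mouse forebrain Dlx1, Dlx2, Dlx5 and Dlx6 act in GABA-producing interneurons.

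The libraries held 33706389 to 43155031 reads in genes. Of 14 tested rows of neural crest markers 13 rose and none fell, their summed level going from 626 to 891 normalized counts in controls to between 41902 and 82795 in treated explants. Of 12 rows of epidermal markers 10 fell and none rose, from sums of 1316551 to 1724111 to sums of 544485 in treated library a, 212840 in b and 274717 in c. All 7 rows of multiciliated cell markers fell, from 20846 to 25473 down to 261 to 1377, and all 6 of ionocytes, from 26546 to 35457 down to 225 to 924. Neural plate markers rose in 6 of 9 rows and cement gland markers in 4 of 5, with no row lower in either list. Of 9 rows of mesoderm markers only 4 were tested, the others lying below the mean filter, and 1 rose and 1 fell. Of 6 rows of endoderm markers only 2 were tested, and these fell. The endoderm markers sox17b and endodermin had no row. Among preplacodal markers 1 of 4 rose. No marker row was without a read in all libraries. Along the first principal component treated library a lay at 105.8, nearer to the controls than b and c at 187 and 196. In bulk samples fewer cells of a type and less RNA per cell cannot be told apart, and the part of cell composition in the results below was not tested.

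In treated explants 7 Dlx genes fell and 2 rose. The members that fell were both copies of dlx2, both copies of dlx3, dlx4.S, dlx5.L and 1 provisional dlx1 model, and those that rose were both copies of dlx6. For dlx5.S and the other dlx1 model with reads the test threshold was not passed. The threshold was a Benjamini-Hochberg adjusted p under 0.05 over all 22932 genes tested with limma on log2(normalized count + 1). On this scale the median change of the 11 tested Dlx genes was -1.95, against 0.01 for all genes. The added 1 shrinks changes of low genes, yet some limma folds were larger than those of count tests on recovered reads. For dlx2.L the log2 fold was -5.13 in limma, -4.26 in edgeR and -4.28 in DESeq2. In the same order dlx4.S was at -5.55, -5.26 and -5.31. For dlx6.L the limma fold was the smaller, at 4.08 against 4.24 in both count tests. Among all genes 55.8% passed (26.1% higher and 29.7% lower), and control and treated libraries were fully apart for 64.9%. They were fully apart for 9 of the 11 Dlx genes. The same numbers of Dlx genes rose and fell with edgeR on recovered reads, where 54% of all genes passed, and with the library letter as a replicate block, where 60.2% passed. Upper quartile scaling turned the split over all genes from 5995 higher and 6811 lower to 8108 higher and 5594 lower, and left the Dlx counts as they were. Summed over all members, Dlx transcripts went from 29103 ± 4041 normalized counts in controls to 12128 ± 1411 in treated explants (SD, n = 3). Most of the control sum was dlx3 (68.8%), whose copies together went from 20031 to 3559. The sum of dlx1 and dlx2 went from 2950 to 253. For dlx5 and dlx6 the mean sum was 5892 in controls and 8309 in treated explants, but the groups overlapped. The controls held 6408, 5155 and 6115, and treated libraries a, b and c held 6356, 10453 and 8117. The change of this sum by itself was not tested.

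**Figure D1:**
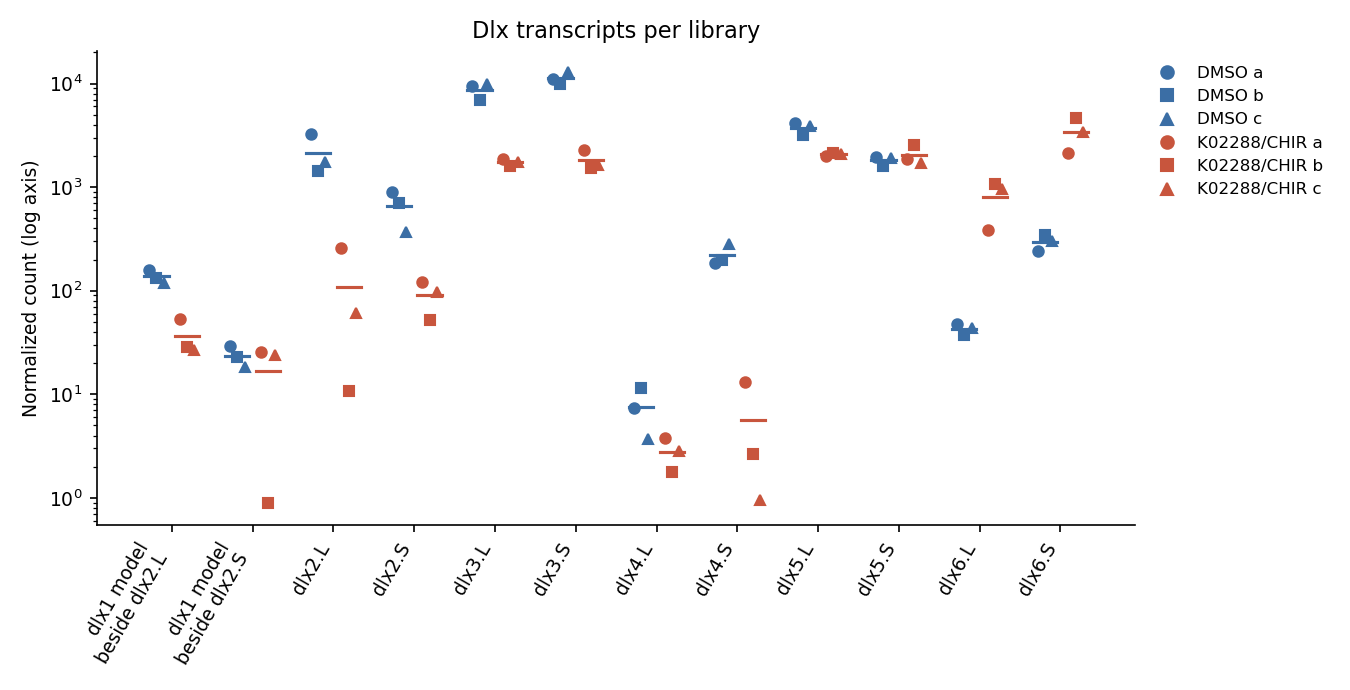
Normalized counts of the 12 Dlx genes with reads, on a log axis, in each DMSO library (blue) and K02288/CHIR library (red), where horizontal bars are group means. The treated libraries lie below all controls for dlx2, dlx3, dlx4.S, dlx5.L and the dlx1 model beside dlx2.L, and above them for dlx6.

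The epidermal regulator dlx3 fell in both copies. For dlx3.L the controls held 9484, 6909 and 9857 normalized counts in libraries a, b and c, and the treated libraries 1860, 1609 and 1763. Its group means differed 5.02-fold, 8750 ± 1605 against 1744 ± 127 (SD, n = 3). The lowest control stood well above the highest treated library, and the treated libraries were close to each other. Its log2 fold was -2.31 with a 95% interval of -2.70 to -1.92 (limma adjusted p = 0.000129).

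For dlx3.S the controls held 11144, 9869 and 12829 normalized counts and the treated libraries 2274, 1540 and 1629. The groups were again apart, with treated library a the highest of its group. Its means differed 6.22-fold, and its log2 fold was -2.65 with a 95% interval of -3.09 to -2.21 (limma adjusted p = 0.000125). Transcripts of dlx3 were still well above the limit of detection in treated explants, with 1708 to 2413 reads per library for dlx3.S. Reads could be counted because the deposited values are whole reads divided by a library factor.

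The tandem partner dlx4 was close to the limit of detection in treated explants. For dlx4.S the controls held 185, 197 and 283 normalized counts, and the treated libraries held 13.2, 2.67 and 0.954, which come from 14, 3 and 1 reads. Its log2 fold was -5.55 with a 95% interval of -7.27 to -3.83 (limma adjusted p = 0.000911). The treated libraries differed widely among themselves, and without treated library a the log2 fold was -6.35, without b -5.37 and without c -4.92. The L copy, dlx4.L, lay below the mean filter and was not tested in the main fit. It had 8, 11 and 3 reads in the controls and 4, 2 and 3 in treated libraries, so that the groups overlapped in normalized counts (3.71 to 11.4 against 1.78 to 3.77). Its control level was 2.76 times the treated level by reads, with an exact 95% interval of 1.22 to 6.81 that covers counting error only. With the filter left out, the log2 fold of dlx4.L was -1.08 and did not pass (limma adjusted p = 0.197).

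Transcripts of dlx2, the member best known from migrating cranial crest, were lower in the crest-labelled explants. For dlx2.L the controls held 3231, 1435 and 1732 normalized counts and the treated libraries 257, 10.7 and 61.0. All treated libraries lay below all controls, but they spread far, from 12 reads in b to 273 in a. Its log2 fold was -5.13 with a 95% interval of -7.57 to -2.69 (limma adjusted p = 0.00522). It was -6.22 without treated library a and -3.98 without treated library b, and the treated mean of 110 normalized counts was 35.9 without a.

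For dlx2.S the controls held 899, 706 and 367 normalized counts and the treated libraries 123, 51.6 and 96.3. The groups did not overlap, and treated library a was again the highest of its group. Its means differed 7.29-fold and its log2 fold was -2.84 with a 95% interval of -3.88 to -1.80 (limma adjusted p = 0.00174). Epidermal markers were also highest in treated library a among the treated libraries, as given above, and so were neural crest markers, at 82795 against 41902 in b and 58508 in c. The part of either in the dlx2 values of library a was not tested.

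No row of the table has the symbol dlx1. Of the 4 models provisionally named so, LOC108701370 is the nearest gene to dlx2.L and LOC108702993 the nearest to dlx2.S on 1 side in the RefSeq gene table of assembly Xenopus_laevis_v10.1, the place of dlx1 in other vertebrates. The remaining models, LOC108703985 and LOC108709208, had 0 reads in every library. For LOC108701370 the controls held 158, 134 and 120 normalized counts and the treated libraries 53.7, 28.5 and 26.7. Its groups did not overlap, and its log2 fold was -1.95 with a 95% interval of -2.79 to -1.11 (limma adjusted p = 0.00342).

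The S-side model, LOC108702993, had 29.4, 22.8 and 18.5 normalized counts in the controls and 25.4, 0.889 and 23.8 in the treated libraries. Treated library b held a single read, while a and c lay within the control range. Its log2 fold of -1.17 had a 95% interval of -3.62 to 1.28 and did not pass (limma adjusted p = 0.369), and it was 0.08 without treated library b. A long noncoding RNA gene overlaps this model in the RefSeq gene table, and since the sources used here do not give whether strand was counted, reads of the overlapping genes cannot be told apart.

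The pair dlx5 and dlx6, known from ectoderm at the border of the neural plate and from the pharyngeal arches, held the only members that rose, the copies of dlx6. For dlx6.L the controls held 47.8, 37.3 and 43.2 normalized counts and the treated libraries 387, 1083 and 957. Every treated library was above every control, and library a was the lowest of the treated group. Its means differed 18.9-fold, and its log2 fold was 4.08 with a 95% interval of 3.12 to 5.05 (limma adjusted p = 0.000337).

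For dlx6.S the controls held 243, 344 and 304 normalized counts and the treated libraries 2118, 4672 and 3371. The groups were apart in the same way, with treated library a lowest. Its means differed 11.4-fold, 297 ± 50.6 against 3387 ± 1277 (SD, n = 3), and its log2 fold was 3.45 with a 95% interval of 2.74 to 4.16 (limma adjusted p = 0.000221). Without treated library a the log2 folds were 4.55 for dlx6.L and 3.75 for dlx6.S.

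The copies of dlx5 changed unequally, as tested on their ratio further on. For dlx5.L the controls held 4144, 3161 and 3856 normalized counts and the treated libraries 1994, 2150 and 2079. The treated libraries were tightly grouped and all below the controls. Its means differed 1.79-fold, and its log2 fold was -0.83 with a 95% interval of -1.16 to -0.51 (limma adjusted p = 0.00220), or -0.54 under upper quartile scaling (limma adjusted p = 0.0143).

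For dlx5.S the controls held 1973, 1613 and 1912 normalized counts and the treated libraries 1856, 2547 and 1709, so that the groups overlapped. Its log2 fold of 0.14 had a 95% interval of -0.30 to 0.57 and did not pass (limma adjusted p = 0.556). That interval holds neither the fall of dlx5.L nor the rise of dlx6.S. Upper quartile scaling shifts the median change over all genes from 0.01 to 0.30, and with it the value was 0.43 (limma adjusted p = 0.0873).

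**Figure D2:**
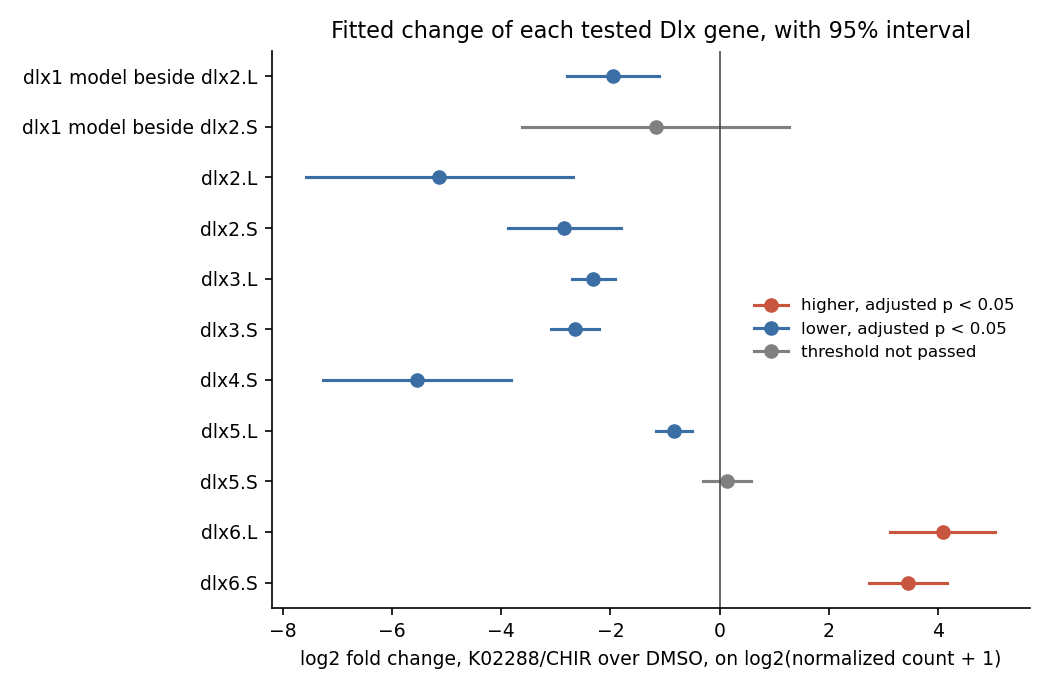
Log2 fold changes, treated over control, of the 11 tested Dlx genes (points) with 95% intervals (bars) on the log2(normalized count + 1) scale. The 7 genes in blue fell, the 2 copies of dlx6 in red rose, and the 2 in grey did not pass the threshold.

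Whether the copies of a pair changed unequally was tested on the log2 ratio of L over S within each library. Library scaling cancels in this ratio except at low counts, where the added 1 matters. A length difference between the copies stays in the ratio and cancels only in its change between groups. The test was limma over all 5797 pairs of the table with both copies at a mean of at least 10, and 35.1% of them passed. Of the 5 Dlx pairs tested, only dlx5 passed. Its log2 ratio of L over S was 1.07, 0.97 and 1.01 in the controls and 0.10, -0.24 and 0.28 in the treated libraries. The controls lay within a narrow range and every treated library was below it. The change was -0.97 with a 95% interval of -1.40 to -0.54 (limma adjusted p = 0.0103), and it passed without any 1 library, where the adjusted p ran from 0.0197 to 0.0393.

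For dlx2 the log2 ratio of L over S was 1.84, 1.02 and 2.24 in controls, and 1.06, -2.17 and -0.65 in treated libraries. Treated library a thus lay within the control range and b and c below it. The change of -2.29 had a 95% interval of -4.32 to -0.25 and did not pass (limma adjusted p = 0.0795). It passed with the library letter as a replicate block (adjusted p = 0.0477) and without treated library a (-3.11, adjusted p = 0.0153).

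The dlx3 pair changed by 0.34 with a 95% interval of -0.08 to 0.75 (limma adjusted p = 0.171), and its groups overlapped. The dlx6 pair changed by 0.64 with an interval of -0.06 to 1.33 (limma adjusted p = 0.133). Both copies of dlx6 thus rose while a difference in their rise was not shown. For the dlx1 models the change was -0.78 with an interval of -3.13 to 1.56 (limma adjusted p = 0.560). It was -1.90 and passed without treated library b (adjusted p = 0.0166), the library with 1 read of the S model, and was 0.00024 without treated library c. In dlx4 the low reads of the L copy kept the pair out of this test.

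**Figure D3:**
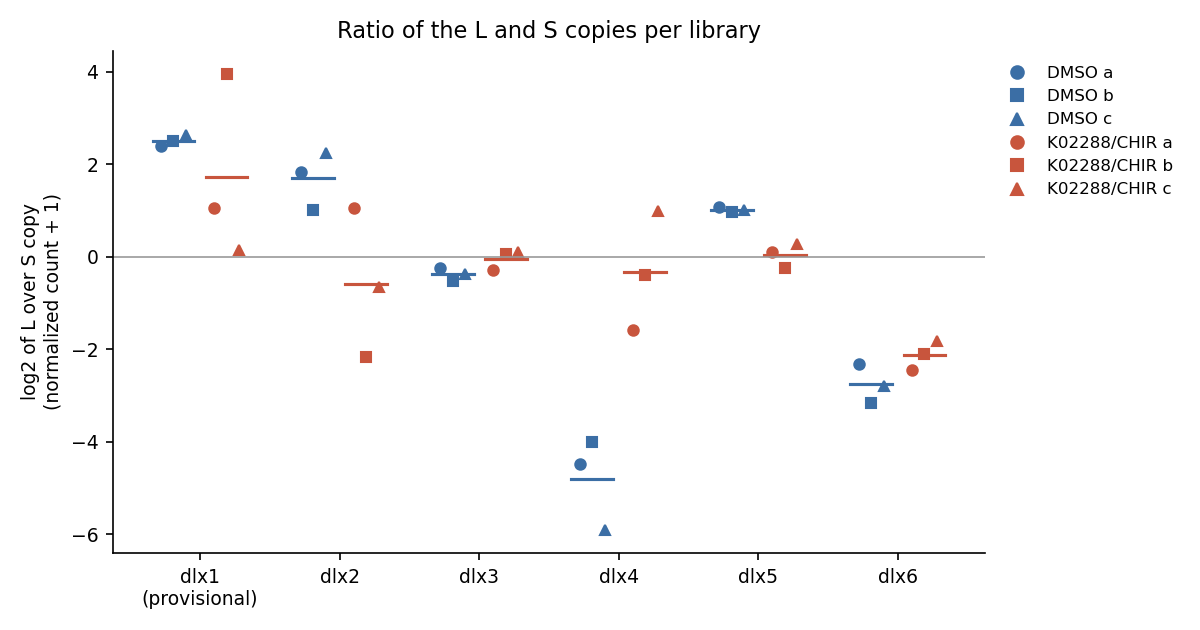
Log2 ratio of the L copy over the S copy, on normalized count + 1, in each DMSO library (blue) and K02288/CHIR library (red), where bars are group means. The controls of dlx5 stand at 0.97 to 1.07 and the treated libraries at -0.24 to 0.28, while the groups of the dlx3 pair overlap. The dlx4 pair is drawn but was not tested.

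Changes of Dlx genes relative to each other were compared within libraries, with the L and S copies summed, in 7 comparisons. Of these 4 were planned, and the 3 within a tandem pair were chosen after the values were seen. Adjusted p-values are by Benjamini-Hochberg over all 7, although adjustment over the 4 alone was planned. The 3 chosen later thus lower the adjusted p of planned comparisons, which carries no weight beyond the unadjusted p. With 3 libraries against 3, a two-sided exact permutation test cannot give a p below 0.1, so that no comparison can pass 0.05. Summed dlx5 and dlx6 over summed dlx3 and dlx4 had log2 ratios of -1.70, -1.72 and -1.91 in the controls and 0.61, 1.73 and 1.26 in treated libraries. The groups were apart by 2.98 on the log2 scale (exact permutation p = 0.1, adjusted p = 0.117). Against dlx1 and dlx2, the same sum was higher by 4.23 in treated explants (exact permutation p = 0.1, adjusted p = 0.117). Leaving out 1 library moved this difference to between 3.47, without treated library b, and 4.99, without treated library a.

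The level of dlx2 relative to dlx3 was lower in the treated libraries than in the controls by a narrow margin. Its log2 ratio over dlx3 was -2.32, -2.97 and -3.43 in controls and -3.44, -5.64 and -4.42 in treated libraries. Treated library a lay next to control library c, so that the groups only just did not overlap. The difference was -1.59 (exact permutation p = 0.1, adjusted p = 0.117). With a pseudocount of 5 the separation was lost (-1.55, exact permutation p = 0.2), and leaving out 1 library moved the difference to between -2.12, without treated library a, and -1.02, without treated library b. For dlx1 and dlx2 together over dlx3 and dlx4 the groups overlapped, and the difference was -1.26 (exact permutation p = 0.2, adjusted p = 0.2), running from -1.72 without treated library a to -0.76 without treated library b.

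Within tandem pairs the ratio of the partners also differed between groups without overlap. The log2 ratio of dlx6 over dlx5 was -4.39, -3.64 and -4.05 in controls and -0.62, 0.29 and 0.19 in treated libraries, a difference of 3.98. For dlx4 over dlx3 the difference was -2.37 (-1.75 with a pseudocount of 5), and for dlx1 over dlx2 it was 2.40. All of these had an exact permutation p of 0.1, the smallest possible, and an adjusted p of 0.117.

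**Figure D4:**
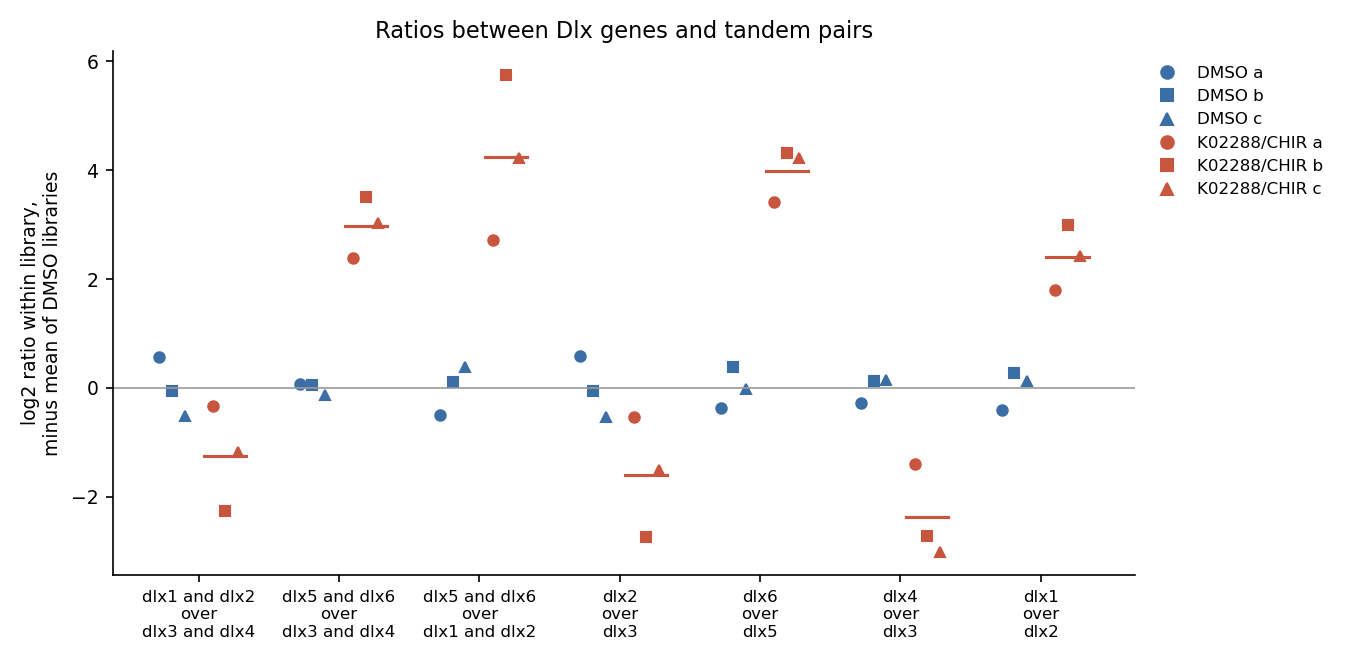
Log2 ratios between summed Dlx genes within each library, less the mean of the DMSO libraries (blue), so that red points show how far each K02288/CHIR library departed from controls. Red bars are treated means. dlx6 over dlx5 and dlx5 with dlx6 over dlx3 with dlx4 are higher in all 3 treated libraries, by 3.98 and 2.98 on average.

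Genes known to act before, with or after Dlx genes were followed as 6 lists, whose counts are read against the 26.1% of all genes that rose and the 29.7% that fell. Upstream ectodermal inputs are BMP ligands and transcription factors that set up or maintain Dlx expression in ectoderm. Of their 37 tested rows 23 fell and 7 rose, with a median log2 fold of -1.78. Among those that fell, gata3.L, a factor of non-neural ectoderm, went from 2830, 2793 and 3353 normalized counts in controls to 124, 53.4 and 110 in treated libraries. ventx2.1.S, a homeobox gene downstream of BMP, went from 4011 ± 594 to 897 ± 53.6, and bmp4.S, which encodes a BMP ligand, from 3686 ± 126 to 442 ± 135 (SD, n = 3). The controls and treated libraries were apart for each of these. The L copy of ventx2.1 went the other way, from 808 ± 195 to 1730 ± 424 (2.14-fold, limma adjusted p = 0.0104). ventx2.2.L rose by 1.57 ± 0.30 on the log2 scale, while ventx2.2.S fell from 2871 ± 996 to 1407 ± 361 (limma adjusted p = 0.0244). ventx2.1.L and both copies of ventx2.2 were named after their values were seen.

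Other inputs moved the other way. bmp2.S, which encodes a BMP ligand as well, held 42.2, 32.1 and 35.8 normalized counts in controls and 240, 315 and 182 in treated libraries (log2 fold 2.68 ± 0.30 SE, limma adjusted p = 0.000479). klf17.L, a zinc finger gene, rose by 2.74 ± 0.34 on the log2 scale, and tfap2a.S, an activator of ectodermal and crest genes, by 1.32 ± 0.12.

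Proteins known to bind Dlx proteins include the Msx homeodomain proteins, which in mammals pair with Dlx proteins and oppose their activity. Of 7 tested rows 4 rose, all of them msx1 and msx2 copies, and 1 fell. msx2.S held 1349, 1144 and 1161 normalized counts in controls and 3350, 7084 and 5253 in treated libraries (log2 fold 2.04 ± 0.27 SE, limma adjusted p = 0.000894). msx1.L rose by 2.42 ± 0.18 and msx1.S by 2.03 ± 0.23. The row that fell was smad6.L, an inhibitory Smad, at -0.64 ± 0.22 (limma adjusted p = 0.0454). This gene no longer passed in the count test of edgeR (adjusted p = 0.0719), in DESeq2 (0.0543), under upper quartile scaling (0.237), with no filter on low values (0.0573), without any 1 control library (0.114, 0.0925 and 0.103 for a, b and c) and without treated library a (0.0950) or b (0.127). The S copy, smad6.S, named after its values were seen, had a log2 fold of 0.28 that did not pass (limma adjusted p = 0.126). The median of this list was 1.27.

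Epidermal genes of the setting in which Dlx3 acts fell in 24 of 28 tested rows and rose in 2, with a median log2 fold of -2.13. grhl1.S, a regulator of epidermal differentiation, went from 20515, 16996 and 20906 normalized counts in controls to 4391, 4970 and 4477 in treated libraries. krt12.5.L, a keratin gene, went from 19544 ± 4915 to 833 ± 514 (SD, n = 3). The copies of cdh1, which encodes E-cadherin, went in opposite directions: cdh1.S fell by 2.05 on the log2 scale from a control mean of 50236 normalized counts, and cdh1.L rose by 4.53 ± 0.47 from a control mean of 31.7. The other row that rose was tgm1.S, a transglutaminase gene, at 7.35, 2.07 and 0 in controls and 52.8, 20.5 and 7.63 in treated libraries. Its call (limma adjusted p = 0.0439) was lost in the count test of edgeR (0.0584) and without control library b (0.0922), control c (0.118) or treated b (0.0991), and without treated library a it was not tested.

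Pharyngeal arch genes that act under or beside the Dlx code rose in 10 of 19 tested rows and fell in 4, with a median of 0.81. A further 16 of the 35 rows lay below the mean filter, and barx1.L and barx1.S had no read. Rows that rose numbered 6 without control library a and 6 without treated library c. The largest fall was in hand2, a ventral arch gene whose mouse counterpart depends on Dlx5 and Dlx6. hand2.L held 450, 305 and 480 normalized counts in controls and 8.48, 0.889 and 0.954 in treated libraries (log2 fold -6.95 ± 0.67 SE, limma adjusted p = 0.000311). hand2.S held 207, 77.7 and 126 in controls and 20.7, 1.78 and 3.81 in treated libraries. In the same explants both copies of dlx6 rose, dlx5.L fell and dlx5.S did not pass the threshold. The explants are ectoderm and not pharyngeal arches, and whether hand2 depends on Dlx genes in them was not tested. plcb3.L, a phospholipase gene of endothelin signalling, fell by 1.14 on the log2 scale, from a control mean of 1218 normalized counts. Its S copy, named after its values were seen, had the higher level and did not fall. plcb3.S was at 3885 in controls and 4776 in treated explants, a log2 fold of 0.29 that did not pass (limma adjusted p = 0.0793).

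Arch genes that rose included nr2f1.L, a nuclear receptor of the upper arch, which held 4.59, 9.32 and 8.65 normalized counts in controls and 190, 138 and 189 in treated libraries. prrx1.L, a homeobox gene of crest mesenchyme, had no read in controls and 34.9, 36.5 and 26.7 in treated libraries. jag1.L, which encodes a Notch ligand, had a log2 fold of 2.55 ± 0.35 SE (limma adjusted p = 0.00106). The controls lay below every treated library for each of these.

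Forebrain genes of the GABA neuron programme were mostly near or below the filter, with 11 of 26 rows tested, 2 higher and 5 lower, and a median of -0.75. Lower rows numbered 1 without control library a, 2 without control c and 3 without treated c. sp9.L, a zinc finger gene, held 2.76, 0 and 0 normalized counts in controls and 188, 237 and 452 in treated libraries. Its relative sp8.L rose by 1.53 ± 0.36 on the log2 scale. gad1.2.L, a glutamate decarboxylase gene, was at 38881 ± 5777 in controls and 23176 ± 3041 in treated explants (SD, n = 3). Its log2 fold was -0.75 (limma adjusted p = 0.00667), a call that was lost under upper quartile scaling (0.0605). The S copy, named after its values were seen, was at 601 in controls and 642 in treated explants. The log2 fold of gad1.2.S was 0.09 and did not pass (limma adjusted p = 0.759). nkx2-1.L, an early regulator of these neurons, had no read.

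Otic and preplacodal genes, some of which in fish need dlx3 for their induction, rose in 4 of 14 tested rows and fell in 5, with a median of 0.90. Rows that rose numbered 2 without control library b or c or without treated library a or c. The otic homeobox gene hmx2 fell in both copies, hmx2.L from 161, 260 and 278 normalized counts in controls to 12.3, 0 and 0.954 in treated libraries, and hmx2.S from 45.0, 88.0 and 67.9 to 2.83, 0 and 0. pax8.S had no read in controls and 127, 4.45 and 11.4 in treated ones. Treated library a thus held most of it, and its call (limma adjusted p = 0.0166) was lost at a pseudocount of 5 (0.0561). Without treated library a the gene lay below the mean filter and was not tested. The copies of sall4, a zinc finger gene, moved in opposite directions: sall4.L fell by 1.83 on the log2 scale, while sall4.S rose by 1.76 ± 0.51, a call lost without control library b (adjusted p = 0.0541), control c (0.0719) or treated c (0.0711).

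**Figure D5:**
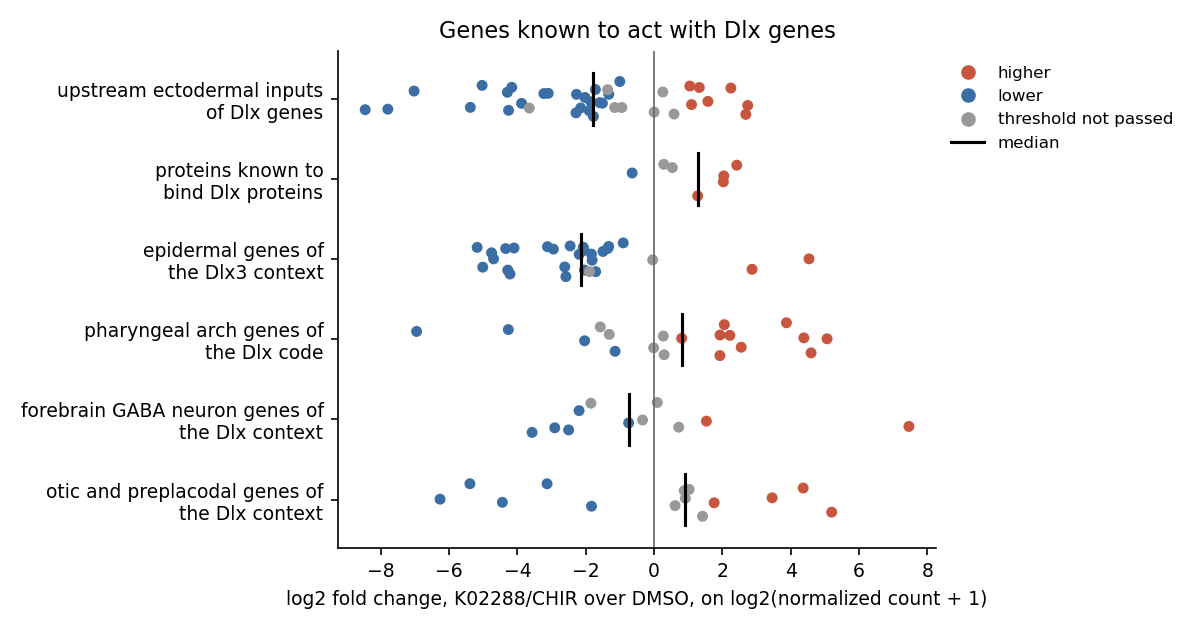
Log2 fold changes, treated over control, of the tested rows of the 6 lists, where each point is a gene copy (red higher, blue lower, grey threshold not passed) and black bars are list medians. The medians of upstream inputs and epidermal genes are -1.78 and -2.13, and that of proteins that bind Dlx proteins is 1.27.

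The neighbours of the Dlx pairs in the RefSeq gene table were compared with them, taking the nearest 2 genes with a symbol on each side of the 6 loci. Of these 24 genes 23 were tested, with 4 higher, 6 lower and a median log2 fold of 0.12, against 26.1% higher and 29.7% lower among all genes, so that neither share of the neighbours was above that of all genes. The 4 with the smallest adjusted p were itga3.S, itga3.L, pdk1.L and itga6.S, and the other neighbours named here were chosen after their values were seen. Beside dlx3 and dlx4, which fell, itga3.L and itga3.S, copies of an integrin alpha subunit gene, fell by 4.57 and 3.24 on the log2 scale, while the acetyltransferase gene kat7 on the other side was at 0.15 for L (limma adjusted p = 0.414) and 0.30 for S (limma adjusted p = 0.158). Beside dlx2, itga6, another integrin gene, fell in both copies, with log2 folds of -2.00 for L and -2.99 for S. pdk1, a kinase gene of pyruvate metabolism that lies beyond itga6, rose by 1.90 ± 0.21 for L and 1.49 ± 0.31 for S.

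Around dlx5 and dlx6, slc25a13, a mitochondrial carrier gene, fell, with log2 folds of -0.91 for L and -1.13 for S. tac1.L, which encodes a tachykinin precursor, had no read in controls and 0.942, 88.9 and 45.8 normalized counts in treated libraries, a call (limma adjusted p = 0.0342) that was lost at a pseudocount of 5 (0.0517), without any 1 control library (0.0803, 0.0775 and 0.0809 for a, b and c) and without treated library c (0.117). Without treated library b it lay below the mean filter and was not tested. tac1.S was at 0 to 2.47 in all libraries.

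The genes whose profiles over the 6 libraries were most like those of Dlx genes were found by the root mean square difference of centred log2 values among 18144 genes with a mean of at least 50. For dlx2.L these were pear1.L at 0.14, bok.L, a Bcl2 family gene, at 0.41, and nkx2-5.S, a homeobox gene, at 0.46. pear1.L held 242, 112 and 163 normalized counts in controls and 24.5, 0 and 4.77 in treated libraries. Its treated values come from 26, 0 and 5 reads. The genes were picked for likeness over these same 6 libraries, so their likeness within groups is no separate finding. For dlx3.S they were pacsin2.S and spice1.L at 0.09 and the unnamed Xelaev18013302m at 0.09. For dlx5.L they were smim20.L, rab3d.L, a Rab GTPase gene, and pfn1.S, which encodes an actin-binding protein, all at 0.09.

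For dlx6.S, chosen after its values were seen, the nearest profiles were lhfpl2.L at 0.17, marcksl1.S at 0.19 and a gene model provisionally named fmnl3, LOC108709808 [provisional:fmnl3], at 0.20. marcksl1.S held 804, 848 and 710 normalized counts in controls and 6804, 12773 and 10173 in treated libraries. Library a was lowest in the treated group as for dlx6.S, a likeness for which the gene was picked.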

How the data were processed

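The authors' deposited signal per library is, per the file headers and values, a normalized count, in which each library's gene reads share 1 scaling factor. Within 0.01 reads, 100% of 184429 values above 0 were whole multiples of 1 read, so reads were recovered. Per the submitters' processing notes DESeq was used, with no version listed. The aligner, the genome build and the annotation were, in the sources used here, not given. Deposited score columns (log2 fold, its error, Wald statistic) and the authors' p-values were read but not used. Of the rows, 5 counter summaries were left out, and 1 shifted row was mended by rejoining its name. Reads aligned to more than 1 place made up 4.93% to 5.91% of reads in 5 libraries and 11.1% in DMSO library a. Such reads are lost to both copies of near-identical genes, which leaves levels of L and S copies uncertain. These shares are of whole libraries, and the loss for each Dlx pair was not measured. Reads in no gene made up 10.9% to 12.8%.

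Members and lists were chosen with earlier results of these data known. The principal test was limma 3.58.1 with trend (R 4.3.3), on log2(normalized count + 1) of genes whose mean reached 10, with group as the only term, and Benjamini-Hochberg adjustment over all genes tested. L over S ratios were fitted in the same way over all pairs, and sums of Dlx genes were compared by exact permutation tests (scipy 1.17.1). The fits were also run on simulated data, in which far fewer genes changed than the 55.8% called here. That run cannot show how the fits behave under so broad a change. Alternatives were edgeR 4.0.16 and DESeq2 1.42.0 on recovered reads, upper quartile scaling, a pseudocount of 5, no filter, a replicate block and leaving out each library. Same-letter libraries of the groups deviated together (r = 0.33, 0.40 and 0.32 for a, b and c across genes). The letter was therefore taken to pair them in the replicate block. The principal fits and the permutation tests leave this pairing out. Genes named beside the Dlx genes are, per list and direction, up to 3 with the smallest adjusted p, then the 4 neighbours with the smallest adjusted p, and the 3 nearest profiles of the gene with the highest mean count in each tandem pair. Some genes this rule named are not reported here. Figures were drawn with matplotlib 3.10.9. Of the table's gene names, 62.8% matched the RefSeq gene table. It was used for neighbours and overlaps, and to take the dlx1 models with reads as L and S copies.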

Additional observations from a re-analysis of the deposited data

How the results depend on the processing

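The counts of 2 Dlx genes higher and 7 lower were the same under edgeR, DESeq2, upper quartile scaling, a pseudocount of 5, no filter, the replicate block and without each library. Over all genes upper quartile scaling gave 8108 higher and 5594 lower, against 5995 and 6811. Leaving out 1 library gave 4591 to 5949 higher and 5712 to 7029 lower. Log2 folds then ran from -0.035 (without treated library b) to 0.25 for dlx5.S, which passed in none of these fits, and from -1.82 to 0.085 (without treated library b) for LOC108702993. The L over S change ran from -1.90 to 0.00024 for the dlx1 models and from -3.11 to -1.49 for dlx2. The replicate block moved the dlx2 ratio, at -2.29, past the threshold (adjusted p = 0.0477) and changed no other Dlx call. The dlx4 ratio, otherwise not tested, passed with no filter at 4.46 (limma adjusted p = 0.0151), from 9 treated reads of the L copy. Leaving out 1 library, the ratios of summed Dlx genes not given above ran from 2.71 to 3.27 for dlx5 and dlx6 over dlx3 and dlx4, 3.80 to 4.27 for dlx6 over dlx5, -2.86 to -2.06 for dlx4 over dlx3 and 2.11 to 2.71 for dlx1 over dlx2. Of 54 called genes named beside the Dlx genes, 8 lost their call under at least 1 alternative. The ventx copies named after their values were seen are not among the 54. Those not given above are smim20.L, lost under upper quartile scaling (limma adjusted p = 0.0887) and on leaving out control library a (0.0754), control c (0.0746) or treated c (0.0569), and nkx2-5.S, lost in edgeR (0.0649) and on leaving out control a (0.0642), control c (0.0528) or treated c (0.0589). Depth limits dlx4.L, dlx4.S and the dlx1 models, with 1 to 14 reads of dlx4 copies per treated library.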
